A study of Homo sapiens with 5 samples.

Results

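The interval of human chromosome 13 described here runs from 91950000 to 92150000 on build hg19 and holds the gene MIR17HG (92000074 to 92006833, plus strand) and the first 99.1 kb of GPC5, which starts at 92050935 on the same strand. It was chosen by position, with the wide antibody 1 peak at the GPC5 start already known, so every count and width below is a description and none was tested. Across the 6 deposited peak lists the interval held 166 of 1150695 peaks. The lists come from chromatin immunoprecipitation and sequencing (ChIP-seq) of untreated U2932 cells, an established human cell line derived from a diffuse large B-cell lymphoma. Chromatin was precipitated with rabbit polyclonal antibody 1 or antibody 2 against PRDM11, a PR domain family protein, or with an RNA polymerase II antibody. Peaks of each were called once against a rabbit IgG precipitate and once against unprecipitated input chromatin. There was 1 library per antibody and per control (5 in all), so replicate error could not be measured. The lists hold positions alone, so read depth and peak height are unknown. Whether a control library lacked or had an excess of reads here is likewise unknown.

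MIR17HG is a long noncoding RNA gene whose primary transcript carries the miR-17-92 cluster, a group of microRNAs (miRNAs) known for promoting B-cell lymphoma and for being activated by MYC. The miRNA hairpins are cut from the nascent transcript in the nucleus, and each mature strand then recognises messenger RNAs mainly through its seed, bases 2 to 8. GPC5 encodes glypican 5, a heparan sulphate proteoglycan anchored to the cell surface that can modulate growth factor signalling. RNA polymerase II transcribes both kinds of gene and is known to travel beyond the end of a gene before it is released from the template.

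The mature miRNAs are printed because they are the products of MIR17HG, the gene whose start and body lie in the longest run of RNA polymerase II peaks of the interval. Sequences are from RefSeq (build GRCh38.p14), the strand shown is the one generally regarded as the main product of each hairpin, and capitals mark the seed.
hsa-miR-17-5p: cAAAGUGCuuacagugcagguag
hsa-miR-20a-5p: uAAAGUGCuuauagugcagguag
hsa-miR-18a-5p: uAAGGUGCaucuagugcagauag
hsa-miR-19a-3p: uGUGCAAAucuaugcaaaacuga
hsa-miR-19b-3p: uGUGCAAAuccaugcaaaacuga
hsa-miR-92a-3p: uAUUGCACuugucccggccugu
The 6 hairpins thus carry 4 different seeds: miR-17-5p and miR-20a-5p share one, miR-19a-3p and miR-19b-3p share another, and miR-18a-5p and miR-92a-3p each have their own. In GRCh38 all 6 hairpins lie between 2918 and 3704 bp after the MIR17HG start, in the order miR-17, miR-18a, miR-19a, miR-20a, miR-19b-1 and miR-92a-1.

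The promoters are printed because the wide peaks of the interval lay at and behind these start sites. RefSeq's windows of 300 bases run from 250 bases before each GRCh38 start to 50 bases after it, and both members matched the table. Capitals mark the GC box, a motif known to bind Sp family factors, searched as GGGCGG on both strands.
MIR17HG promoter, chr13:91347437-91347736 (GRCh38.p14, plus strand): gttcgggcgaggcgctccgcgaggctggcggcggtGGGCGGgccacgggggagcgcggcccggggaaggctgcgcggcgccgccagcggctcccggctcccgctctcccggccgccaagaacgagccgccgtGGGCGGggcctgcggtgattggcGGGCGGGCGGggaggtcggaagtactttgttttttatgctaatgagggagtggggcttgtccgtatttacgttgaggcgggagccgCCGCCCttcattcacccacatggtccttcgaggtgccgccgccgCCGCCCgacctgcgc
GPC5 promoter, chr13:91398371-91398670 (GRCh38.p14, plus strand): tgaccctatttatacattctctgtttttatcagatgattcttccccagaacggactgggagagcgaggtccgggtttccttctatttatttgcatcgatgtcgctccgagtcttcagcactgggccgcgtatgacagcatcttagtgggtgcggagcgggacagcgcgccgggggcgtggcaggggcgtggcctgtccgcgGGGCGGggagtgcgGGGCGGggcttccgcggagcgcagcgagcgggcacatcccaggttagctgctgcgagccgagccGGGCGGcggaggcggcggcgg
The MIR17HG window held 6 GC boxes, 2 of which overlap by 2 bases, and the GPC5 window held 3. At least 1 GC box was present in 45.0% of the 35116 promoter windows of the same length. The MIR17HG window was 73.0% G or C with 42 CpG dinucleotides and the GPC5 window 65.0% with 33, against medians of 58.7% and 14 over all windows. Neither window held the E-box CACGTG, the motif of MYC, which occurred in 7.26% of all windows. The rest of MIR17HG was not searched for this motif. The TATA motif TATAAA occurred once, on the minus strand of the GPC5 window 242 bases before the start, and in 11.5% of all windows. These windows follow the GRCh38 starts and were not placed under the hg19 peaks.

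In the interval, all but 4 of the 29 RNA polymerase II peaks called against IgG lay in a run over and behind MIR17HG, whereas the widest peaks of both PRDM11 antibodies lay on the GPC5 start. In the lists called against IgG, antibody 1 had 2 peaks in the interval, antibody 2 had 36 and RNA polymerase II had 29. They covered 1.02%, 2.85% and 10.4% of the interval. Of 14186 windows of 200 kb that tile chromosomes 1 to 22 and X and hold a peak in any list, 0.571% had at least as many bases under RNA polymerase II peaks, 1.51% under antibody 1 peaks and 26.3% under antibody 2 peaks. By number of peaks, 2.65% of these windows had at least as many RNA polymerase II peaks, 22.5% as many antibody 1 peaks and 39.9% as many antibody 2 peaks. Against input these shares were 3.17%, 2.85% and 18.6%, so the standing of the antibody 1 count depended on the control. By covered bases they were 0.846%, 1.85% and 12.2%, in the order RNA polymerase II, antibody 1, antibody 2. Of the 2044 bases that antibody 1 peaks covered with IgG as the control, 1866 lay in a single peak.

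**Figure D1:**
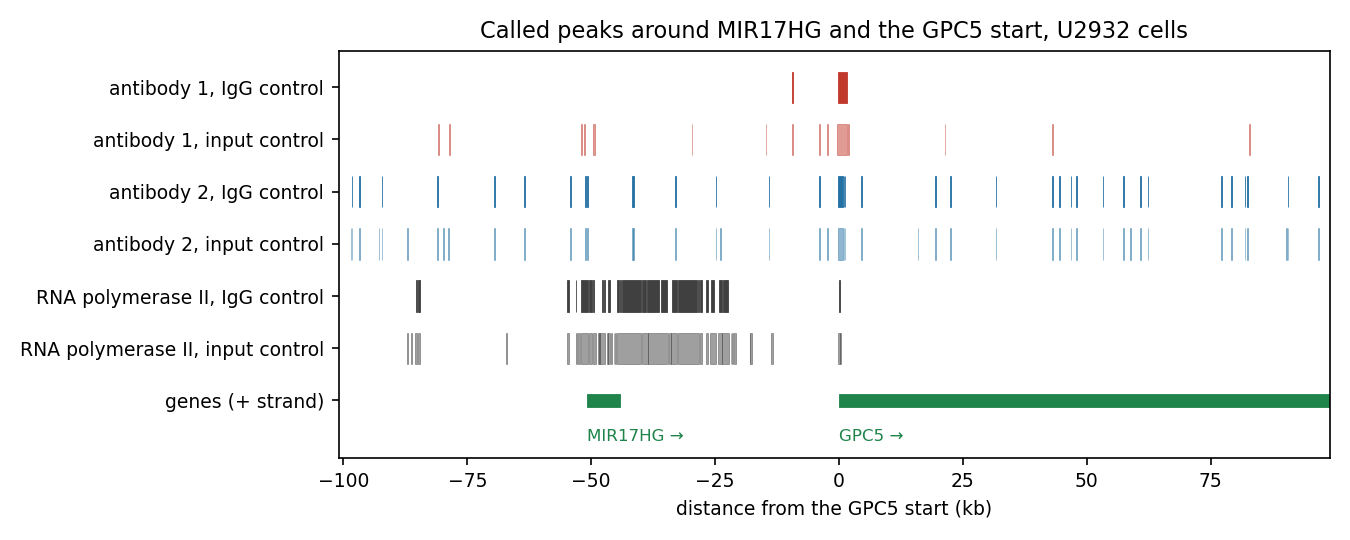
Called peaks of the 3 ChIP libraries along the interval, each called against IgG (full colour) and against input (pale), as boxes drawn to scale by distance from the GPC5 start in kb; the genes are below. RNA polymerase II boxes crowd over and behind MIR17HG, and the wide antibody 1 box stands at the GPC5 start in both lists.

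MIR17HG lay within a long run of RNA polymerase II peaks that reached far past its annotated end. When peaks separated by at most 2 kb were joined, 25 peaks called against IgG formed a run from 91996080 to 92028640, a span of 32.6 kb, of which 61.3% was covered. The run began 3994 bp before the MIR17HG start, ended 21.8 kb past the MIR17HG end and stopped 22.3 kb short of the GPC5 start. Its 19972 covered bases ranked 12 among 22763 runs in the genome, whose median span was 569 bp. Against input the run that covers the MIR17HG start ranked 60 among 29870 by covered bases and 90 by span. With gaps of at most 5 kb joined, the run called against IgG ranked 35 among 17832 by covered bases and 109 by span. RefSeq lists a further long noncoding RNA gene, LOC124903189, between MIR17HG and GPC5 in GRCh38; its hg19 position was not used here. The run over MIR17HG depends on the joining distance: its widest gap was 1537 bp, and joining over at most 1 kb left 6 pieces. The piece over the start spanned 3.69 kb and ranked 955 among 27108 runs by covered bases. The longest piece, from 92006195 to 92016253, spanned 10.1 kb and ranked 146 by span.

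Within the run the widest RNA polymerase II peaks were not at the start of the gene but behind its end. The start itself was covered by a peak of 1343 bp (91998949 to 92000291), which began 1125 bp before it, ranked 931 by width among 50161 peaks, and was followed by a peak of 657 bp. The 6 peaks centred inside the gene were 160 to 657 bp wide and RNA polymerase II covered 30.3% of its 6760 bp. The peak at 92007134 to 92011045, which began 301 bp past the annotated end, was 3912 bp wide and ranked 49. Further wide peaks followed at 92012479 to 92014583 (2105 bp) and 92018404 to 92020589 (2186 bp). The 16 peaks centred between the genes had a median width of 738 bp, against 238 bp for the 6 inside MIR17HG.

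Coverage rose along the run and then fell away. In steps of 5 kb from the MIR17HG start, RNA polymerase II peaks called against IgG covered 34.3% of the first step, 69.8% of the second, 85.0% of the step from 10 to 15 kb, 76.3% of that from 15 to 20 kb, 58.9% of that from 20 to 25 kb and 43.3% of that from 25 to 30 kb. The 5 kb before the start were covered to 31.9%, and none of the 5 kb before those. From 30 kb to 50 kb after the start no RNA polymerase II peak was called against IgG. Against input the order was the same over the first 3 steps, at 69.5%, 87.9% and 97.6%, and coverage was 92.9%, 74.6% and 71.8% in the following 3, with 7.86% from 30 to 35 kb.

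**Figure D2:**
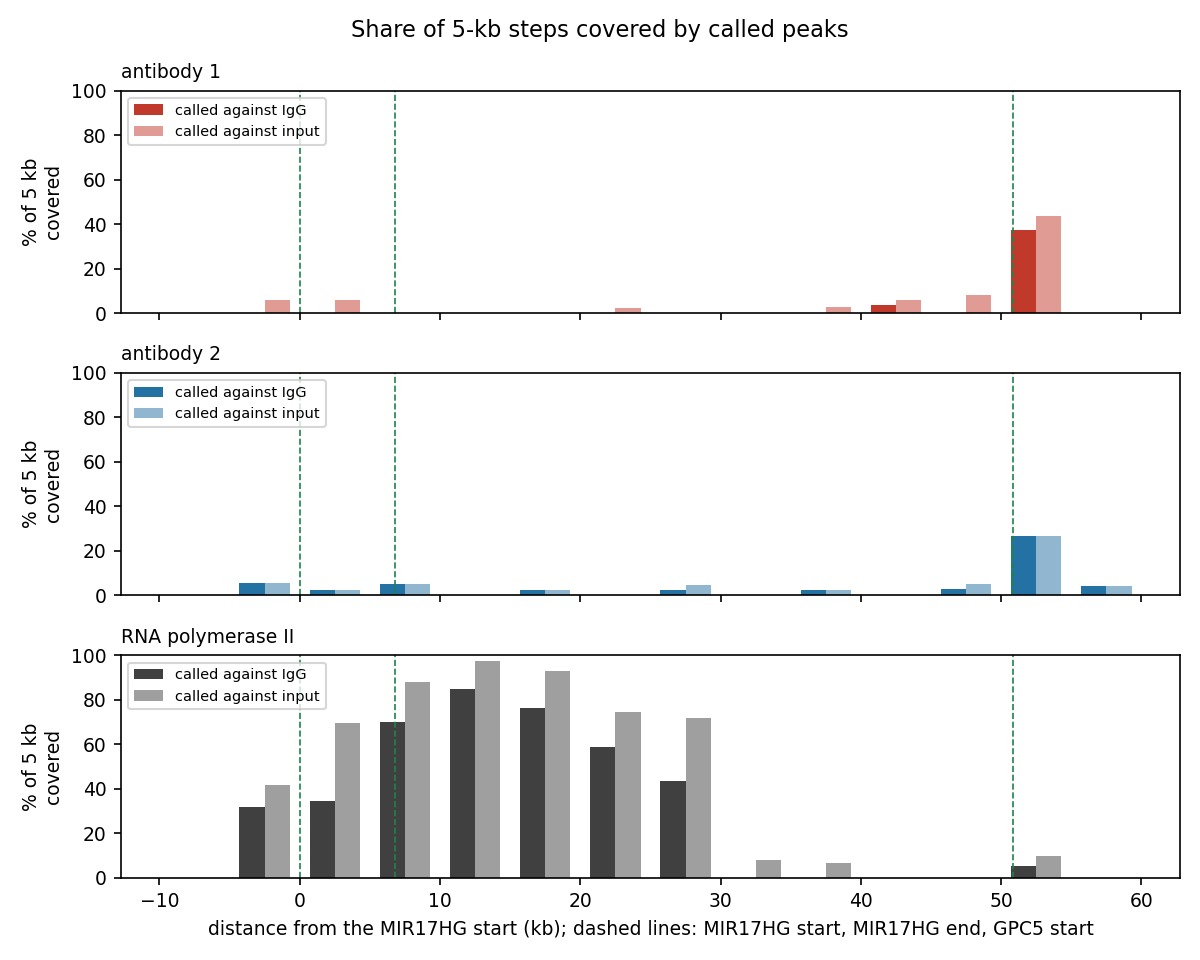
Share of each 5-kb step covered by called peaks (y, %) against distance from the MIR17HG start in kb (x), for antibody 1, antibody 2 and RNA polymerase II in separate panels; full colour for peaks called against IgG, pale for input, dashed lines for the MIR17HG start, its end and the GPC5 start. RNA polymerase II coverage is highest from 10 to 15 kb, behind the gene, while both PRDM11 antibodies have their highest bar at the GPC5 start.

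In the lists called against IgG, PRDM11 antibody peaks over MIR17HG and its run were absent (antibody 1) or at most 165 bp wide (antibody 2). Antibody 1 had no peak called against IgG anywhere in the 32.6-kb run. Antibody 2 had 7 there, 5 of which touched an RNA polymerase II peak. Over the 200-kb windows of the genome antibody 2 averaged 32.8 peaks, so 7 in 32.6 kb was not a low count. Antibody 1 averaged 0.952 in the same windows, so 0 in 32.6 kb was not a low count either. At the start site, antibody 2 peaks of 165 bp (91999755 to 91999919) and 123 bp (92000137 to 92000259) both lay inside the RNA polymerase II peak of 1343 bp. The other 5 were 129 bp or narrower, the list's minimum being 123 bp. Over the whole antibody 2 list 78.4% of peaks had that minimum width, and 13.3% were at least as wide as the 165-bp peak. Among the 11 other runs with more covered bases than that of MIR17HG, 2 had no antibody 1 peak and 9 had between 1 and 7, with a median of 2.00 over all 11, while antibody 2 had 3 to 18 peaks in them with a median of 10.0. The counts over MIR17HG, 0 and 7, lay within those ranges.

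The GPC5 start was covered by peaks of all 3 ChIP libraries, nested in each other. The antibody 1 peak ran from 92050670 to 92052535 (1866 bp), from 265 bp before the start to 1600 bp after it. The antibody 2 peak ran from 92050711 to 92051773 (1063 bp), from 224 bp before the start to 838 bp after it. Further antibody 2 peaks of 138 bp (92051885 to 92052022) and 123 bp (92052108 to 92052230) lay within the same antibody 1 peak, so that antibody 2 covered 71.0% of it. The RNA polymerase II peak was narrower, at 92050856 to 92051121 (266 bp), from 79 bp before the start to 186 bp after it. It lay inside both antibody peaks and covered 14.3% of the antibody 1 peak. The left edges of the 3 peaks were within 186 bp of each other, whereas the antibody 1 peak ended 1414 bp beyond the RNA polymerase II peak and 762 bp beyond the antibody 2 peak, into the gene.

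**Figure D3:**
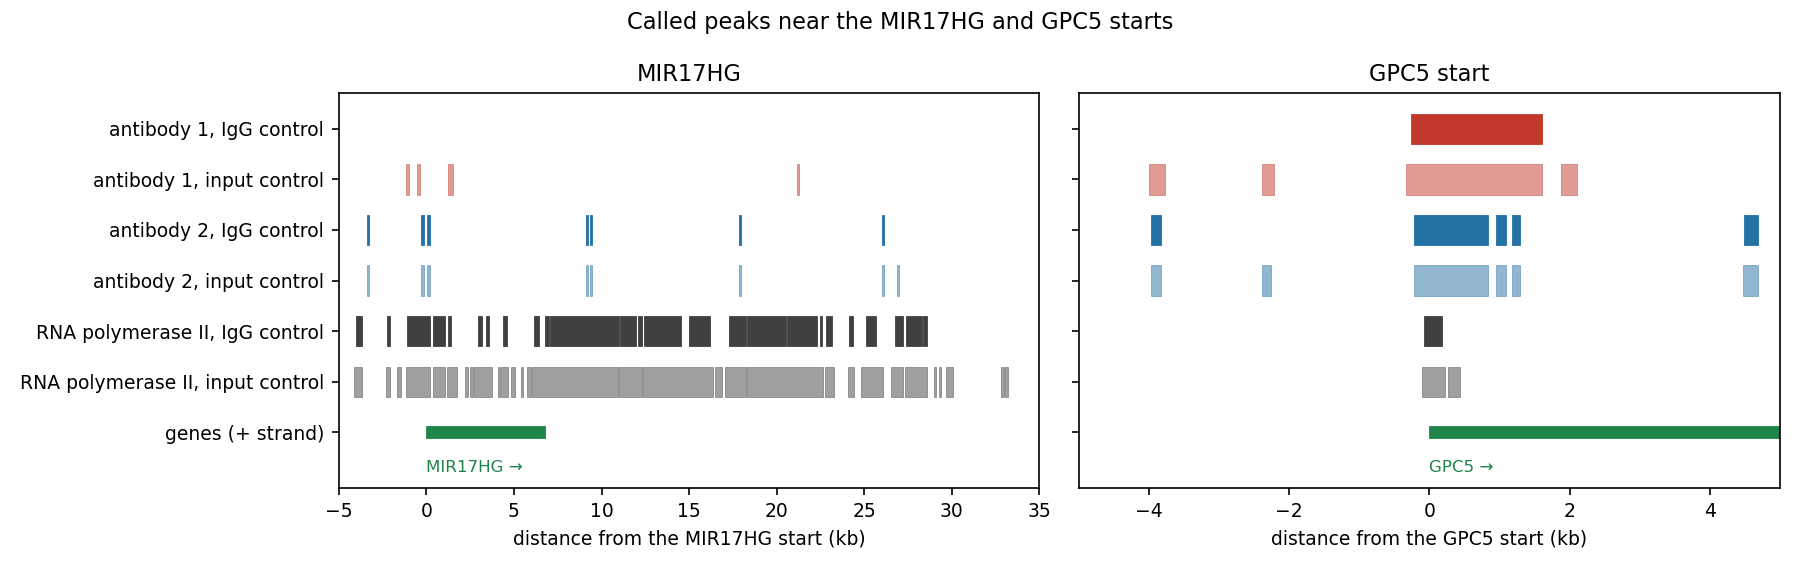
Peaks from 5 kb before to 35 kb after the MIR17HG start (left) and within 5 kb of the GPC5 start (right), in kb, as boxes drawn to scale for each ChIP library and control. At GPC5 the antibody 1, antibody 2 and RNA polymerase II boxes cover the start in all 6 lists, while at MIR17HG antibody 1 boxes appear only in the list called against input.

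By width, the antibody 1 peak at GPC5 ranked 6 of 13499 and the antibody 2 peak 38 of 465837 in the lists called against IgG. Against input the antibody 1 peak, though slightly wider, ranked 443 of 54038, so that 0.822% of that list was at least as wide, in place of 0.0444%. The width at this start was already known when the interval was chosen, and the ranks support nothing. The 266-bp RNA polymerase II peak was of ordinary width: 45.6% of the 50161 peaks in its list were at least as wide. The 5 antibody 1 peaks nearest in rank, at positions 3, 4, 5, 7 and 8, were 1803 to 2013 bp wide. Antibody 2 covered 74.3% to 93.8% of them, against 71.0% at GPC5, and RNA polymerase II covered 23.8% to 78.1%, against 14.3% at GPC5. These 5 lay on chromosome 11 at 10878831 to 10880843 and 118270942 to 118272780, chromosome 15 at 76628843 to 76630787, chromosome 6 at 86302579 to 86304445 and chromosome 22 at 24199022 to 24200824.

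Among all 192 antibody 1 peaks of 1000 bp or wider in the lists called against IgG, the GPC5 peak stood low for RNA polymerase II. For antibody 2 it stood near the middle. RNA polymerase II peaks called against input covered 26.4% of the GPC5 peak, and the comparison was not repeated with that control. Of the 191 others, 179 (93.7%) overlapped an RNA polymerase II peak, and the median share covered was 62.9%. Only 17 of the 191 had a lower share than the 14.3% at GPC5, 12 of them with none at all. The widest RNA polymerase II peak at the 179 had a median width of 657 bp, against 266 bp at GPC5. For antibody 2, 83 of the others had a lower covered share than the 71.0% at GPC5 and 108 a higher one, with a median of 73.5%.

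**Figure D4:**
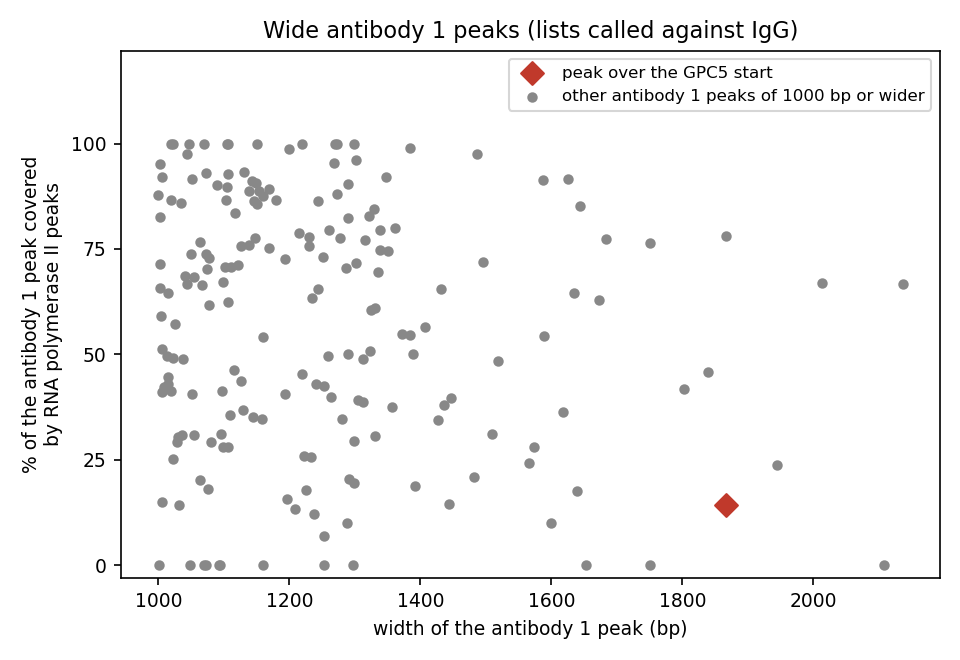
Each of the 192 antibody 1 peaks of 1000 bp or wider in the list called against IgG, by its width in bp (x) and the percentage of it covered by RNA polymerase II peaks (y). The peak over the GPC5 start (diamond, 1866 bp, 14.3%) lies near the bottom right, with 17 of the other 191 below it.

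Outside these sites the lists called against IgG held few peaks in the interval other than narrow antibody 2 ones. The other antibody 1 peak, of 178 bp at 92041474 to 92041651, lay 9284 bp before the GPC5 start and overlapped no antibody 2 or RNA polymerase II peak. At 178 bp it was close to the list's median of 184 bp. Of the 36 antibody 2 peaks, 27 had the minimum width of 123 bp. The whole list had 78.4% of its peaks at that width and 8.31% of 203 bp or wider. The 3 in the interval that reached 200 bp were the 1063-bp peak at the GPC5 start, a peak of 203 bp at 92055421 to 92055623 and one of 220 bp at 92093844 to 92094063. The next widest was 185 bp (92095390 to 92095574), inside GPC5, followed by the 165-bp peak at the MIR17HG start. RNA polymerase II had 3 peaks between 91965522 and 91966424, upstream of MIR17HG, of 149 to 289 bp against a list median of 246 bp. It had none inside GPC5 beyond the one at its start. The further peaks called against input are described below.

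With IgG as the control, few peaks lay close outside the interval other than those of antibody 2. The nearest antibody 1 peaks outside the interval were 1743 kb before it (161 bp) and 348 kb after it (123 bp), and the nearest RNA polymerase II peaks 3487 kb before it (232 bp) and 1663 kb after it (129 bp). The peaks just inside the limits were 91.5 kb and 97.5 kb from them for antibody 1 and 15.5 kb and 98.9 kb for RNA polymerase II. Antibody 2 peaks were 2.63 kb and 2.18 kb inside the limits and 5.51 kb and 2.87 kb outside them. All 4 of these antibody 2 peaks had the minimum width, as had 78.4% of that list. Against input the nearest antibody 1 peaks outside lay 11.7 kb before the interval and 14.8 kb after it. For RNA polymerase II against input they lay 61.2 kb before it and 169.9 kb after it. The annotated GPC5 gene is 1468617 bp long in GRCh38, so most of it lies beyond the interval.

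Overlaps between libraries called against IgG, counted from 1 shared bp, lay at the starts and in the run behind MIR17HG. Those behind MIR17HG were between antibody 2 and RNA polymerase II only. Of the 2 antibody 1 peaks, 1 overlapped antibody 2 and 1 overlapped RNA polymerase II, the GPC5 peak in both cases; over the whole list the shares were 47.2% and 55.2%. Of the 36 antibody 2 peaks, 3 overlapped antibody 1, all at the GPC5 start (1.59% of the whole list), and 6 overlapped RNA polymerase II (3.20% of the whole list). Of the 29 RNA polymerase II peaks, 1 overlapped an antibody 1 peak and 4 overlapped an antibody 2 peak, against 14.3% and 25.6% of its whole list. Nothing can be read from such small numbers about how the interval differs from the rest of the genome. The lists called against IgG share that control, which bears on these overlaps, and the part it plays was not tested.

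The choice of control changed the antibody 1 picture at MIR17HG and left the limits of the wide GPC5 peak almost as they were, though not its rank by width. All 2 antibody 1, 36 antibody 2 and 29 RNA polymerase II peaks called against IgG were found again against input, where the shares over the whole lists were 81.3%, 93.2% and 89.4%. Against input the interval held 15 antibody 1, 46 antibody 2 and 38 RNA polymerase II peaks. Of these, 2, 36 and 20 overlapped a peak called against IgG, while over the whole lists the shares were 19.5%, 89.1% and 52.4%.

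At the GPC5 start, antibody 1 called against input gave a peak of 1942 bp (92050607 to 92052548), which contained the 1866-bp peak called against IgG. The 1063-bp antibody 2 peak had the same limits in both lists, as had 34 of the 36 antibody 2 peaks. The share with unchanged limits over the whole list was not counted. RNA polymerase II had peaks of 325 bp (92050834 to 92051158) and 167 bp (92051206 to 92051372) against input, and these covered 26.4% of the IgG-called antibody 1 peak. Over MIR17HG, input calls widened and joined RNA polymerase II peaks, so that 28 peaks formed a run of 34.1 kb (91995969 to 92030113) covered to 78.6%. The share of MIR17HG itself under RNA polymerase II peaks was 68.5% against input and 30.3% against IgG. The widest peak there, at 92006093 to 92011032, spanned 4940 bp and began inside the gene.

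The 13 additional antibody 1 peaks against input were 123 to 292 bp wide. Near the MIR17HG start they lay at 91998907 to 91999059 (153 bp), 91999544 to 91999693 (150 bp) and 92001330 to 92001621 (292 bp), each overlapping RNA polymerase II and none overlapping antibody 2. A peak of 123 bp at 92021205 to 92021327 lay within the run behind the gene. Before the GPC5 start, peaks of 229 bp (92046931 to 92047159) and 170 bp (92048547 to 92048716) overlapped antibody 2 peaks, and a peak of 235 bp (92052813 to 92053047) lay just after the wide one. In all, 4 of the 15 antibody 1 peaks shared bases with an antibody 2 peak and 5 with an RNA polymerase II peak, both in the lists against input; over the whole list the shares were 34.8% and 44.9%. The 10 additional antibody 2 peaks were 123 to 253 bp wide and the 18 additional RNA polymerase II peaks 129 to 394 bp.

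The interval lies in a stretch of chromosome 13 where antibody 1 peaks called against input were dense. The 1-Mb bin that holds both starts (92000001 to 93000000) had 51 antibody 1 peaks against input and 3 against IgG, and the bin before it had 54 and 0. These were the 2 highest input counts among 97 bins of the chromosome, whose antibody 1 medians were 11.0 against input and 3.00 against IgG. The 3 bins before them had 37, 37 and 41 against input and at most 3 against IgG, and the bin after had 23 and 0. Antibody 2 varied less, with 220 against input and 189 against IgG in the bin of the starts and chromosome medians of 177 and 168. RNA polymerase II had 35 and 23 peaks in that bin, with chromosome medians of 6.50 and 4.00. The antibody 1 peaks near MIR17HG that were called against input alone lie in this stretch. What part the regional density plays in them was not tested.

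**Figure D5:**
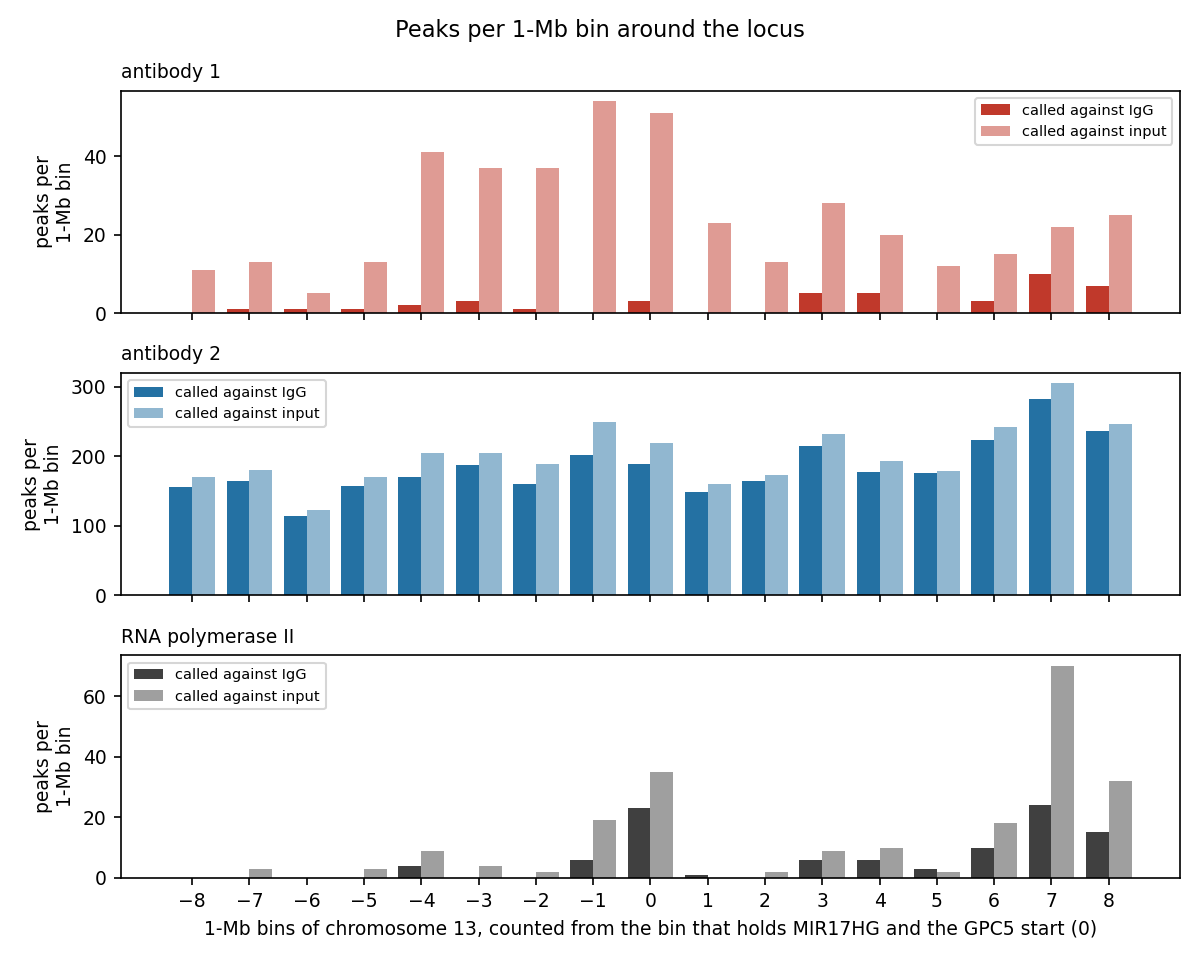
Peaks per 1-Mb bin of chromosome 13 (y) for 8 bins on either side of the bin that holds MIR17HG and the GPC5 start (0 on x), in separate panels for each ChIP library; full colour for IgG, pale for input. Antibody 1 counts against input are highest in bins -1 and 0 (54 and 51), where the counts against IgG are 0 and 3.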

How the data were processed

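Peak lists of 3 ChIP-seq libraries were analysed, each called against IgG and against input (6 lists). Tools named, per the submitters' processing notes, are MACS2 2.0.9, Bowtie 0.12.7 and SAMtools, with build hg19; their order and settings are not given there. The deposited lists hold chromosome, start and end, with no score or count, and their names give a q threshold of 0.1. How duplicate reads were treated is not stated in those sources. Low thresholds, the fragment length and gaps in a control's reads can all change the number, width and overlap of peaks.

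Starts were converted to count from 1. A peak belonged to the interval if it shared at least 1 bp with it, and to a gene or a gap between genes by its midpoint. With 1 library per antibody no test was possible, and depth is unknown. Gene positions are those given with the selection, on hg19; sequences and hairpin offsets are from RefSeq tables of GRCh38.p14 and were not converted. The members, windows and gene lists were chosen with earlier results of these data known. The rule for what is named was MIR17HG and GPC5 only; all antibody 1 and RNA polymerase II peaks of the interval, singly or by range and count; antibody 2 peaks that overlap them, lie within 1 kb of a start or are among the 5 widest; and the 5 antibody 1 peaks nearest in rank by width to that at the GPC5 start. Other glypican genes and paralogous miRNA clusters were not analysed here, for want of an hg19 annotation. Runs of peaks and 1-Mb bins were added after seeing the data. The 5-kb steps and the comparison among antibody 1 peaks of 1000 bp or wider were not planned beforehand either. Computation used Python 3.11.15, NumPy 2.4.6, pandas 2.3.3 and matplotlib 3.10.9; the overlap code found 500 of 500 planted overlaps when tested on simulated data and gave the same counts as bedtools 2.31.1.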

Additional observations from a re-analysis of the deposited data

How the results depend on the processing

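Values are called changed here if they moved by over 1.5 times. Against input, antibody 1 peaks in the interval numbered 15, of which 4 overlapped antibody 2 and 5 overlapped RNA polymerase II, in place of 2, 1 and 1. An interval of 100 kb with the same centre held 18 antibody 2 peaks, fewer by construction. One of 400 kb held, per 200 kb, 1 antibody 1 and 14.5 RNA polymerase II peaks. Peaks of 200 bp or more numbered 1 for antibody 1 and 3 for antibody 2. With at least 50% of the antibody 1 peak to be covered, 0 overlapped RNA polymerase II. The run over the MIR17HG start spanned 3689 bp when gaps of at most 1 kb were joined, in place of 32561 bp; this alternative and that of 5 kb were added after seeing the data. Of 29 alternative values, 19 stayed within 1.5 times, among them all those for the width of the antibody 1 peak at the GPC5 start and of the RNA polymerase II peaks at the MIR17HG start. Taking antibody 1 peaks that reach within 2 kb of the GPC5 start, or only those that cover it, returned the same 1866-bp peak. Its rank by width, 6 against IgG and 443 against input, was not among these values. A stricter threshold by score was not run because the lists carry none. No paired analysis was possible because each antibody has 1 library.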
